A study of Schizosaccharomyces pombe with 9 samples.

Results

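Genes of the fission yeast respiratory chain and ATP synthase were followed across wild-type cells and corepressor and CBF mutants, with attention to the loss of *php5*. They were chosen by gene ID, by a rule that names no measured values, but with earlier results of these data known. These are 10 of the 5323 genes of the deposited table, and each complex of the chain and the ATP synthase has at least 1 of them. They are the NADH dehydrogenase genes *ndi1* and *nde2*, *sdh3* of complex II, *rip1* and *qcr7* of complex III, the cytochrome *c* gene *cyc1*, *cox4* and *cox5* of complex IV, and *atp1* and *atp2* of the ATP synthase. The gene *ndi1* meets the criteria by which the study selected genes on these same libraries: higher upon glucose starvation, higher without *tup11* and *tup12* upon nitrogen starvation, and lower again without *php5*. Its ratios in those comparisons are therefore not independent evidence.

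The messenger RNA of *Schizosaccharomyces pombe* was sequenced after 2 h under each of 3 conditions, in 9 libraries. Glucose rich medium was yeast extract with 6% glucose, glucose starvation medium was yeast extract with 0.1% glucose and 3% glycerol, and nitrogen starvation medium was a minimal medium without a nitrogen source that held 1% glucose. The 3 strains were wild type, a strain labelled *tup11∆/tup12∆*, which would lack the Tup family corepressors, and one labelled *tup11∆/tup12∆/php5∆*, which would also lack a subunit of the CCAAT-binding factor CBF. In the strain list both *tup* genes were disrupted with *ura4* and *php5* with kanMX6, but which listed strains gave the libraries is not stated in the sources used here. Loss of *php5* could be compared only in the *tup11∆/tup12∆* background, since a library of *php5∆* cells alone was not analysed here.

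Each strain and condition had 1 library, so no difference has a replicate check, and no p-value is given. Reads assigned to the 5323 genes, recovered from TPM and length, numbered 36652045 to 54303622 per library. The member with the fewest reads in any library was *cyc1*, with 876 reads under glucose rich conditions in the library with all 3 deletions in its label. Intervals are 95% exact Clopper-Pearson intervals of a ratio and cover counting error only, with reads taken as independent. Reads amplified from the same molecule would not be independent, so the intervals may be too narrow. None of their ends lay more than 7.80% from its ratio, so counting error measured in this way was small beside most differences below. The spread between cultures is unknown.

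The labels were checked against the deleted genes. Libraries labelled *tup11∆/tup12∆* held 61.6, 74.8 and 124 TPM (the authors' value per length, scaled to the same total in every library) of *php5* and libraries labelled *tup11∆/tup12∆/php5∆* 8.92, 21.2 and 30.2 TPM. The order glucose rich, then glucose starvation, then nitrogen starvation is kept throughout. Wild-type cells held 41.9 to 67.5 TPM of *tup11*, and no mutant library held more than 0.418 TPM. In contrast, *tup12* kept 54.5 to 117 TPM in the mutant libraries, against 107 to 157 TPM in wild-type cells. The marker gene *ura4* stood at 0 TPM in wild-type cells and at 36.1 to 179 TPM in the mutant libraries. Reads of *php5* remained in the libraries labelled *tup11∆/tup12∆/php5∆*, 641, 1739 and 1598 of them. Since *tup12* and *php5* reads remained, the mutants are called by their labels. Triple mutant stands for the libraries labelled *tup11∆/tup12∆/php5∆*. The gene *php4*, whose product joins CBF and represses iron-using genes when iron is low, stood at 62.8, 62.75 and 84.7 TPM in wild-type cells. Libraries labelled *tup11∆/tup12∆* held 38.5, 59.2 and 39.0 TPM of it, and the triple mutant 88.4, 131 and 150 TPM. The part of *php4* in the ratios below was not tested.

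In the respiratory chain, electrons from NADH and succinate pass through ubiquinone, complex III, cytochrome *c* and complex IV to oxygen, and the ATP synthase uses the resulting proton gradient to make ATP. Fission yeast has no proton-pumping complex I. Its NADH is oxidized by dehydrogenases of one polypeptide each. CBF, made of Php2, Php3 and Php5, binds CCAAT sequences, and its subunits are known in yeasts as activators of respiratory genes that cells need for growth on non-fermentable carbon sources such as glycerol.

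The sequence that CBF recognizes was searched in the 250 bases before the annotated transcript start of each member, on both strands, in the ASM294v3 assembly. All 10 members had the same coding ends there as in the deposited table. The 5 letters CCAAT were found before 7 of 10 members, against 35.3% of 5112 such windows of protein-coding genes. Both *cyc1* and *sdh3* had 3 copies, and 3 or more were found in 1.39% of windows. The longer form ACCAATNA, which contains CCAAT, was found before 1 of 10 members, *cyc1*, against 3.58% of windows. A match of these letters is a description of the sequence and not a binding site. Stretches of 3 members are shown because *cyc1* had the lowest ratios upon *php5* loss, *sdh3* had the same number of copies but the highest ratios, and *cox5* had 2 copies close to its start. Capitals mark CCAAT or, for a copy on the opposite strand, ATTGG, and each stretch runs 5′ to 3′ in the direction of the gene.
cyc1: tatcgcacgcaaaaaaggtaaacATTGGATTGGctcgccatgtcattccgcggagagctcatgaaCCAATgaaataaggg
sdh3: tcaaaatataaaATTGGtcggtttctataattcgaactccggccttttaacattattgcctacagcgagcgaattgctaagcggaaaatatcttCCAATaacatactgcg
cox5: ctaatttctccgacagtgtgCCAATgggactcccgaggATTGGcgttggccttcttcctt
The *cyc1* stretch lies on the plus strand of chromosome III at chrIII:1714492-1714571, from base -130 to base -51 before the transcript start. The *sdh3* stretch lies on the minus strand at chrIII:136659-136768, from base -120 to base -11, and a further copy at base -226 is not shown. The *cox5* stretch lies on the plus strand at chrIII:1357734-1357793, in the 60 bases before the start. Both opposite-strand copies of *cyc1* are adjacent, and its copy at base -65 belongs to the longer form. The windows of 8 of 10 members, *cyc1*, *sdh3* and *cox5* among them, overlap another annotated transcript.

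**Figure D1:**
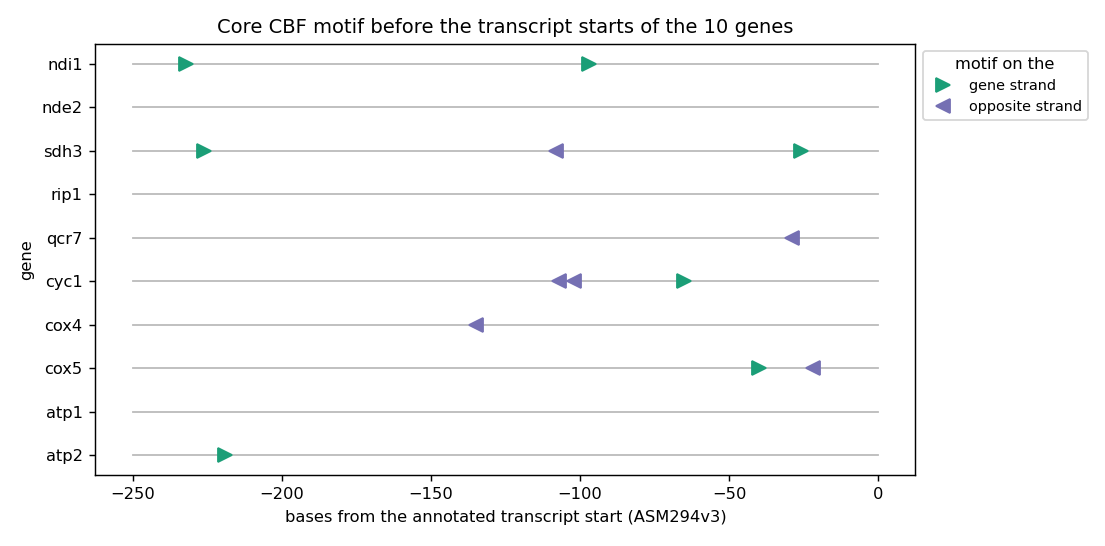
Positions of CCAAT (first base, in bases from the annotated transcript start, on the horizontal axis) in the 250 bases before each of the 10 genes, with the direction of each triangle giving its strand. Copies were found before 7 of 10 genes and none before *nde2*, *rip1* and *atp1*.

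The copies of the other members were spread over the window. Those of *ndi1* began at bases -232 and -97, that of *qcr7* at base -29, that of *cox4* at base -135 and that of *atp2* at base -219. None was found before *nde2*, *rip1* and *atp1* in this window. Of these, *nde2* and *rip1* were over 2-fold lower upon *php5* loss under glucose rich conditions, as were 1.43% of features, and *atp1* was not. Of the members with 3 copies *cyc1* was and *sdh3* was not. Of those with 1 or 2 copies *ndi1* and *qcr7* were, and *cox4*, *cox5* and *atp2* were not. Whether copies and ratios go together was not tested.

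Levels in the 9 libraries come first, in the order of the chain. The gene *ndi1* (SPBC947.15c, chromosome II, 641686 to 643341, plus strand) encodes an NADH dehydrogenase of the inner mitochondrial membrane. Wild-type cells held 87.5, 921 and 234 TPM of it, libraries labelled *tup11∆/tup12∆* 100.4, 468 and 520.1 TPM, and libraries labelled *tup11∆/tup12∆/php5∆* 41.7, 130.1 and 178 TPM. It was thus lowest in the triple mutant under each condition, and its highest level by far was that of glucose-starved wild-type cells. The gene *nde2* (SPAC3A11.07, chromosome I, 3457273 to 3458928, plus strand), which the RefSeq annotation calls *nde1*, encodes an NADH dehydrogenase of the same length, 1656 bases of coding sequence. Wild-type cells held 303, 669.7 and 439.7 TPM of it, libraries labelled *tup11∆/tup12∆* 298, 431 and 734 TPM, and libraries labelled *tup11∆/tup12∆/php5∆* 111, 208 and 361 TPM. Both NADH dehydrogenase genes were higher under nitrogen starvation than under glucose starvation in the libraries labelled *tup11∆/tup12∆*, and the other way round in wild-type cells.

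The gene *sdh3* (SPCC330.12c, chromosome III, 135957 to 136499, minus strand) encodes a membrane anchor of succinate dehydrogenase, complex II. Wild-type cells held 411, 1214 and 844.5 TPM of it, libraries labelled *tup11∆/tup12∆* 417, 838 and 1031 TPM, and libraries labelled *tup11∆/tup12∆/php5∆* 581, 587 and 817 TPM. Under glucose rich conditions it was the 1 member of 10 whose level was highest in the triple mutant.

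The gene *rip1* (SPBC16H5.06, chromosome II, 2289372 to 2290058, minus strand) encodes the Rieske iron-sulphur protein of complex III. Wild-type cells held 384, 1187 and 617 TPM of it, libraries labelled *tup11∆/tup12∆* 222.1, 628 and 811 TPM, and libraries labelled *tup11∆/tup12∆/php5∆* 97.4, 285 and 327 TPM. The annotated transcript of the neighbouring protein-coding gene *ppa2* covers 100% of its coding sequence, and since the libraries hold no strand information, reads of both cannot be told apart. The gene *qcr7* (SPCC737.02c, chromosome III, 1887542 to 1887955, minus strand) encodes another subunit of complex III and stood at 389.9, 985.5 and 732 TPM in wild-type cells. Libraries labelled *tup11∆/tup12∆* held 299, 760.0 and 775 TPM of it, and libraries labelled *tup11∆/tup12∆/php5∆* 136, 340.5 and 421.5 TPM. Both complex III genes were lowest in the triple mutant under every condition.

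The gene *cyc1* (SPCC191.07, chromosome III, 1714735 to 1715064, plus strand) encodes cytochrome *c*, the soluble carrier between complexes III and IV. It was the most abundant member per length in 5 of the 6 libraries with *php5*, and in nitrogen-starved wild-type cells it came after *atp2*. Wild-type cells held 834, 2690 and 1315 TPM of it, libraries labelled *tup11∆/tup12∆* 848, 1812 and 2176 TPM, and libraries labelled *tup11∆/tup12∆/php5∆* 46.1, 394 and 250.4 TPM. In the triple mutant under glucose rich conditions only *ndi1* was lower among the 10 genes, and no triple mutant library reached the lowest level of the other strains.

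The gene *cox4* (SPAC1296.02, chromosome I, 711301 to 712150, plus strand) encodes a nuclear subunit of cytochrome *c* oxidase, complex IV. Wild-type cells held 346, 887 and 540.1 TPM of it, libraries labelled *tup11∆/tup12∆* 322, 782 and 700.5 TPM, and libraries labelled *tup11∆/tup12∆/php5∆* 204.5, 220.4 and 355 TPM. The gene *cox5* (SPCC338.10c, chromosome III, 1357866 to 1358426, plus strand) encodes another nuclear subunit of the same enzyme and stood at 477, 1021 and 856 TPM in wild-type cells. Libraries labelled *tup11∆/tup12∆* held 422, 1356 and 1322 TPM of it, and libraries labelled *tup11∆/tup12∆/php5∆* 261, 373 and 616 TPM. Of the 10 genes, *cox5* was the only one higher under glucose starvation in *tup11∆/tup12∆* cells, as labelled, than in wild-type cells, and with size factors *cox4* was too (log2 ratio 0.14). Annotated non-coding transcripts cover 100% of the coding sequence of *cox5*, 85.5% of that of *cox4*, 57.7% of that of *qcr7* and 49.6% of that of *ndi1*, and their reads cannot be told apart here without strand. No other annotated transcript overlaps the coding sequence of *nde2*, *sdh3*, *cyc1*, *atp1* or *atp2*.

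The genes *atp1* (SPAC14C4.14, chromosome I, 5256781 to 5258829, plus strand) and *atp2* (SPAC222.12c, chromosome I, 968783 to 970360, minus strand) encode the alpha and beta subunits of the catalytic head of the ATP synthase. Wild-type cells held 416, 1199 and 795 TPM of *atp1*, libraries labelled *tup11∆/tup12∆* 329, 821 and 1138 TPM, and libraries labelled *tup11∆/tup12∆/php5∆* 296, 513 and 706 TPM. Wild-type cells held 784, 2084 and 1542 TPM of *atp2*, libraries labelled *tup11∆/tup12∆* 574, 1151 and 1769 TPM, and libraries labelled *tup11∆/tup12∆/php5∆* 338.0, 535 and 932 TPM. In each strain the *atp* genes had their lowest level under glucose rich conditions, and in both mutants their highest under nitrogen starvation.

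**Figure D2:**
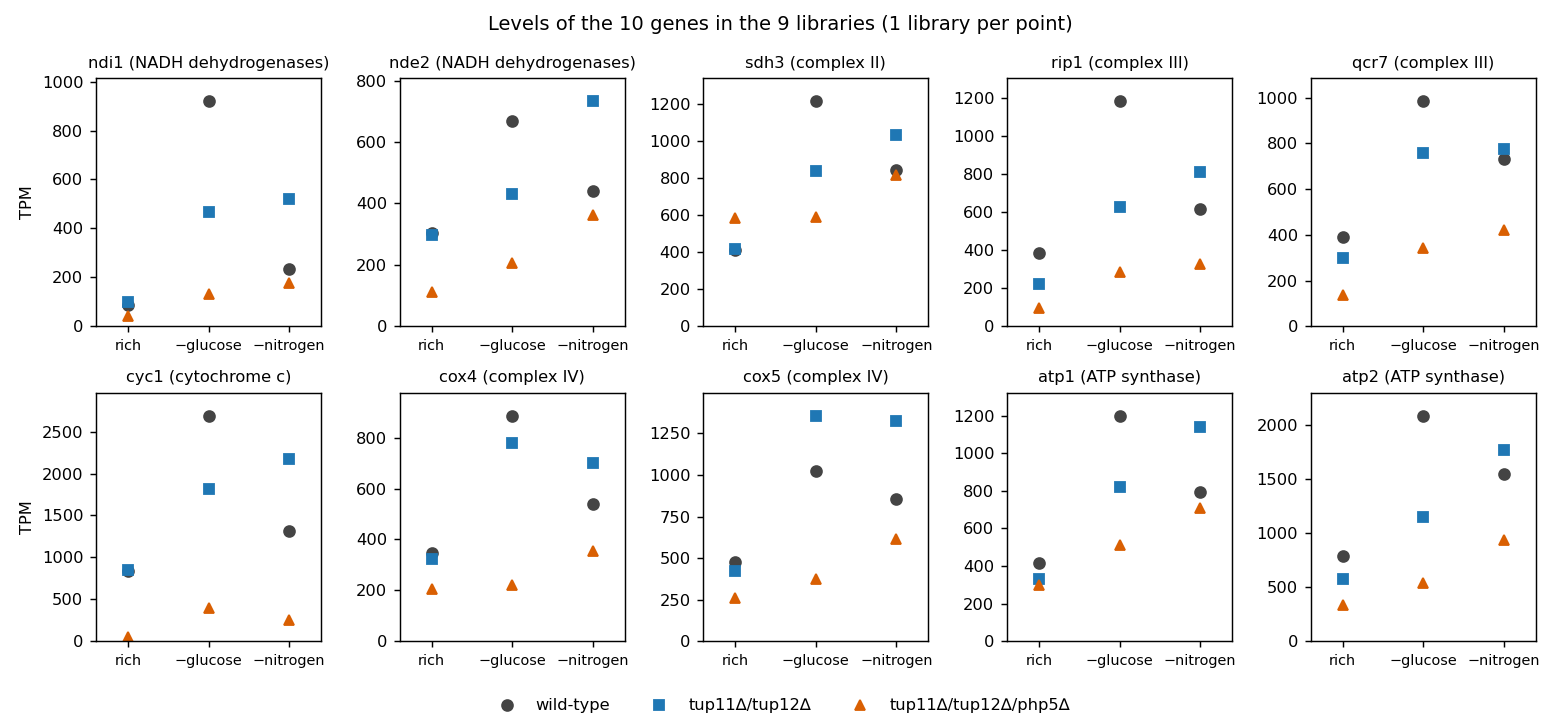
Levels of the 10 genes in TPM (vertical axes, each from 0) in the 3 media, with 1 library per point and a symbol for each strain. The triple mutant (triangles) is lowest in all panels but for *sdh3* under glucose rich conditions, with *cyc1* at 46.1, 394 and 250.4 TPM.

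Loss of *php5* was read as the ratio of *tup11∆/tup12∆/php5∆* over *tup11∆/tup12∆* libraries of the same medium, and a gene was called where the TPM differed over 2-fold. Under glucose rich conditions 5 of 10 members were over 2-fold lower, against 1.43% of the 4810 features whose mean reached 10 TPM. These were *cyc1*, *ndi1*, *nde2*, *rip1* and *qcr7*. None was over 2-fold higher, against 4.24% of features. Relative to the median feature, the same 5 of 10 members were over 2-fold lower, against 1.73% of features. The member median ratio was 0.522, against 1.09 for all features.

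The lowest ratio under glucose rich conditions was that of *cyc1*, which was 18.4-fold lower without *php5* (17.2 to 19.7). This was rank 1 from the lowest among the 4810 features. Next came *nde2*, 2.69-fold lower (2.63 to 2.74), *ndi1*, 2.41-fold lower (2.32 to 2.50), *rip1*, 2.28-fold lower (2.20 to 2.37), and *qcr7*, 2.20-fold lower (2.11 to 2.29), at ranks 38 to 55. The genes of complex IV and *atp2* were 1.58-fold to 1.70-fold lower, and *atp1* 1.11-fold lower (1.09 to 1.13). In contrast, *sdh3* had a ratio of 1.39 (1.36 to 1.42), which is above that of the median feature.

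Under glucose starvation 8 of 10 members were over 2-fold lower without *php5*, but so were 34.0% of features, since the median feature had a ratio of 0.653 in this pair of libraries. None was over 2-fold higher, against 5.11% of features. Relative to the median feature, 4 of 10 members were over 2-fold lower, against 14.2% of features. These 4 were *cyc1*, which was 4.61-fold lower in TPM (4.50 to 4.72), *cox5*, 3.64-fold lower (3.57 to 3.71), *ndi1*, 3.60-fold lower (3.53 to 3.67), and *cox4*, 3.55-fold lower (3.45 to 3.64). The other 6 members had TPM ratios between 0.448 and 0.700, which are 0.687 to 1.07 times that of the median feature, and *sdh3* was the 1 member above that median. The 10 most abundant features of each library made up 17.4% and 18.2% of TPM in this comparison, against 7.54% to 13.9% in the others. An alternative TPM left out the 10 features with the highest mean over the 9 libraries, which need not be the same features. With this TPM 8 of 10 members were likewise over 2-fold lower, and the log2 ratio of *cyc1* was -2.21 instead of -2.20. With size factors or a common upper quartile it was 4 of 10.

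Under nitrogen starvation 5 of 10 members were over 2-fold lower without *php5*, against 3.22% of features. None was over 2-fold higher, against 2.95%. These 5 were *cyc1*, 8.69-fold lower (8.39 to 9.002) and at rank 9 from the lowest, *ndi1*, 2.92-fold lower (2.86 to 2.98), *rip1*, 2.48-fold lower (2.42 to 2.54), *cox5*, 2.15-fold lower (2.10 to 2.19), and *nde2*, 2.03-fold lower. The interval of *nde2* reaches 2.00, and *cox4*, 1.97-fold lower (1.92 to 2.03), lay just outside the threshold with an interval that crosses it, so these genes cannot be separated by it. Relative to the median feature, 3 of 10 members were over 2-fold lower, against 2.43% of features. The remaining members *atp2*, *qcr7*, *atp1* and *sdh3* were 1.90-fold, 1.84-fold, 1.61-fold and 1.26-fold lower.

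Across the 3 media, *cyc1* had the lowest ratio of the 10 genes in each and *sdh3* the highest, while the order in between varied. Which genes varied between media depends on the scaling, since the median feature did. The TPM ratios of *cox4* and *cox5* were 0.635 and 0.618 under glucose rich conditions and 0.282 and 0.275 under glucose starvation, or 0.584 and 0.569 against 0.432 and 0.421 relative to the median feature. Those of *nde2* were 0.373, 0.482 and 0.492, or 0.343, 0.739 and 0.531 relative to the median feature. These comparisons have the same control label but separate libraries in each medium.

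**Figure D3:**
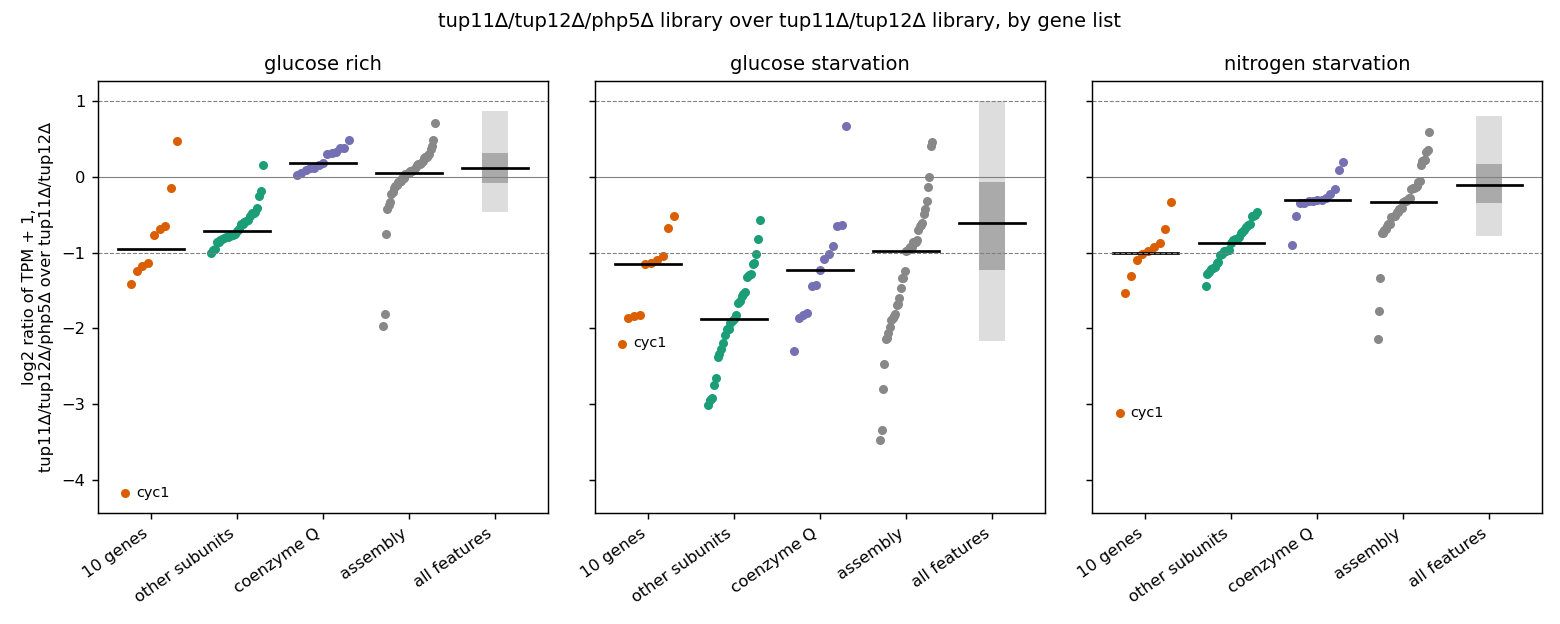
Log2 ratio of TPM + 1 of the library labelled *tup11∆/tup12∆/php5∆* over that labelled *tup11∆/tup12∆* in the 3 media, for the 10 genes, the 29 other subunit genes, coenzyme Q genes and assembly factors (points, with medians as black lines), beside the 5th to 95th and 25th to 75th percentiles of 4810 features (light and dark bars) and dashed lines at 2-fold. The point of *cyc1* lies at -4.17, -2.20 and -3.11, and the medians of features at 0.12, -0.62 and -0.11.

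Ratios between members of the same library do not depend on the scaling of that library. The ratio of *cyc1* to *atp1* was 2.00, 2.24 and 1.66 in wild-type cells and 2.58, 2.21 and 1.91 in the libraries labelled *tup11∆/tup12∆*. In those labelled *tup11∆/tup12∆/php5∆* it was 0.156, 0.768 and 0.355. Cytochrome *c* thus went from the more abundant to the less abundant transcript of this pair in each medium. The ratio of *sdh3* to *rip1* was 1.02 to 1.88 in the 6 libraries with *php5* and 5.96, 2.06 and 2.50 in the triple mutant.

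The 2 NADH dehydrogenase genes differed from each other mainly between media. The ratio of *ndi1* to *nde2* was 0.289, 1.38 and 0.533 in wild-type cells, and 0.337, 1.09 and 0.709 in the libraries labelled *tup11∆/tup12∆*. In those labelled *tup11∆/tup12∆/php5∆* it was 0.376, 0.627 and 0.494, so that *ndi1* stayed below *nde2* under glucose starvation only there.

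**Figure D4:**
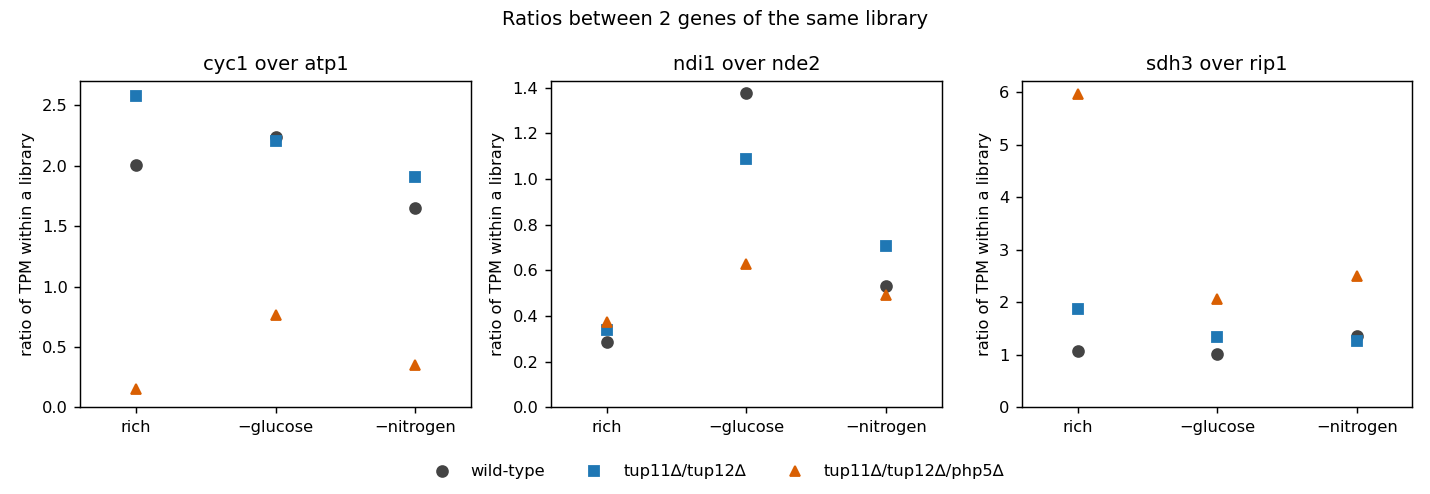
Ratio of TPM of *cyc1* over *atp1*, *ndi1* over *nde2* and *sdh3* over *rip1* within each of the 9 libraries (vertical axes from 0, 1 library per point). The triple mutant is lowest for *cyc1* over *atp1* (0.156 to 0.768) and highest for *sdh3* over *rip1* (2.06 to 5.96) in every medium. Reads of *rip1* and *ppa2* cannot be told apart.

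The wider chain was described with lists of nuclear genes. Of 29 other subunit genes of complexes II to IV and the ATP synthase, 28 were lower without *php5* under glucose rich conditions, against 34.1% of features, and 29 of 29 were lower under both starvations, against 77.1% and 61.4%. Their median ratios were 0.608, 0.270 and 0.544, beside 0.522, 0.451 and 0.500 for the 10 members. Over 2-fold lower were 1, 27 and 10 of the 29, against 1.43%, 34.0% and 3.22% of features, and relative to the median feature 3, 18 and 8, against 1.73%, 14.2% and 2.43%. Under glucose starvation the median of the 6 other complex IV genes was 0.195 and that of the 7 other complex III genes 0.261. The members were therefore not the lowest part of the chain in that medium.

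Some genes of the wider lists with the lowest ratios can be set beside the members. The gene *cyc2*, named for a protein that in budding yeast helps attach heme to cytochrome *c*, had ratios of 0.249, 0.0857 and 0.216, and under glucose starvation it was below *cyc1* itself. The gene *coa2*, an assembly factor of complex IV in budding yeast, had 0.279, 0.0845 and 0.286. In complex II, *tim18* had 0.123 under glucose starvation and 0.369 under nitrogen starvation, both below the ratios of *sdh3*. Under glucose rich conditions the third lowest was *inh1*, the inhibitor of the ATP synthase, with 0.497 (0.466 to 0.528). Among genes whose mean reached 10 TPM, the highest ratios were those of *coa3*, *coq7* and *cmc4* under glucose rich conditions (1.34 to 1.41), of *dps1*, *mzm1* and *coa3* under glucose starvation (1.33 to 1.61), and of *cmc4*, *sdh7* and *cmc2* under nitrogen starvation (1.17 to 1.52), all from the assembly and coenzyme Q lists.

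The summed level of the 10 members and the 29 other subunit genes was 1.56%, 4.24% and 2.81% of all TPM in wild-type cells. Libraries labelled *tup11∆/tup12∆* had 1.38%, 3.53% and 3.50%, and libraries labelled *tup11∆/tup12∆/php5∆* had 0.849%, 1.13% and 1.82%. As a share of TPM, the sum in the glucose-starved triple mutant was thus below that of wild-type cells under glucose rich conditions. The median feature was lower as well. Its ratio was 0.6305 for the starved over the glucose rich library of the triple mutant. For the triple mutant over wild-type cells, both in glucose rich medium, it was 0.955. The sums were not scaled to the median feature, so this order holds for TPM only.

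Starvation in wild-type cells was compared with the glucose rich library. Under glucose starvation 10 of 10 members were over 2-fold higher, against 19.3% of features. With size factors or a common upper quartile it was 8 of 10, without *nde2* and *cox5*. The largest ratio was that of *ndi1*, 10.5-fold higher (10.3 to 10.8), and the other 9 were 2.14-fold (*cox5*) to 3.22-fold (*cyc1*) higher. Under nitrogen starvation 2 of 10 members were over 2-fold higher, *ndi1* with a ratio of 2.68 (2.61 to 2.74) and *sdh3* with 2.05 (2.01 to 2.10), against 17.8% of features. With size factors *sdh3* had 1.75 and was not over 2-fold higher. In TPM the other 8 members had ratios of 1.45 to 1.97, from *nde2* to *atp2*, beside a median of 1.22 for features. Both ratios share the glucose rich library.

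The same ratios were taken within the mutants. In the libraries labelled *tup11∆/tup12∆*, *ndi1* was 4.66-fold higher under glucose starvation and 5.18-fold higher under nitrogen starvation. In those labelled *tup11∆/tup12∆/php5∆* it was 3.12-fold and 4.28-fold higher, from a lower start. The triple mutant had 8.54-fold more *cyc1* under glucose starvation (7.96 to 9.16) and 5.43-fold more under nitrogen starvation (5.04 to 5.86) than under glucose rich conditions. These *cyc1* ratios exceed those of the other strains, 1.58 to 3.22, but they start from 46.1 TPM. In the triple mutant, *sdh3* and *cox4* differed little between glucose starvation and glucose rich conditions, with ratios of 1.01 (0.990 to 1.03) and 1.08 (1.04 to 1.12), whereas the median feature had a ratio of 0.631. There *rip1* and *qcr7* had ratios of 2.93 and 2.50, beside 3.09 and 2.53 in wild-type cells, and *nde2*, *cox5*, *atp1* and *atp2* had 1.43 to 1.87. Under nitrogen starvation the 10 members of the triple mutant had ratios of 1.41 (*sdh3*) to 5.43 (*cyc1*) beside a median of 1.18 for features.

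Loss of *tup11* and *tup12* was read as the ratio of *tup11∆/tup12∆* libraries, as labelled, over wild-type libraries. Under glucose rich conditions 0 of 10 members were over 2-fold higher, against 3.49% of features, and 0 were over 2-fold lower, against 1.19%. The lowest ratio was that of *rip1*, 0.578 (0.564 to 0.592), and *cyc1* had 1.02 (0.996 to 1.04), beside a median of 0.883 for features. Under glucose starvation 0 of 10 members passed 2-fold in either direction, against 3.91% of features higher and 5.99% lower. The ratios ran from 0.508 for *ndi1* (0.502 to 0.514), just inside the threshold, to 1.33 for *cox5* (1.31 to 1.35). The median feature had a ratio of 0.799, and relative to it *ndi1* had 0.636 and *cox5* 1.66.

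Under nitrogen starvation all 10 members were higher without *tup11* and *tup12*, as labelled, with ratios of 1.06 to 2.22 beside a median of 1.02 for features, of which 46.4% were lower. Only *ndi1* was over 2-fold higher, with a ratio of 2.22 (2.18 to 2.26), against 5.28% of features, and 0 of 10 were over 2-fold lower, against 3.24%. The ratios of *nde2*, *cyc1* and *cox5* were 1.67, 1.65 and 1.54, and that of *qcr7*, 1.06, was the lowest and fell just below 1 with size factors (log2 ratio -0.02) and with the upper quartile (-0.05). The libraries labelled *tup11∆/tup12∆* serve both here and as the base of the *php5* ratios, so the ratios of the 2 comparisons in a medium are not independent of each other.

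**Figure D5:**
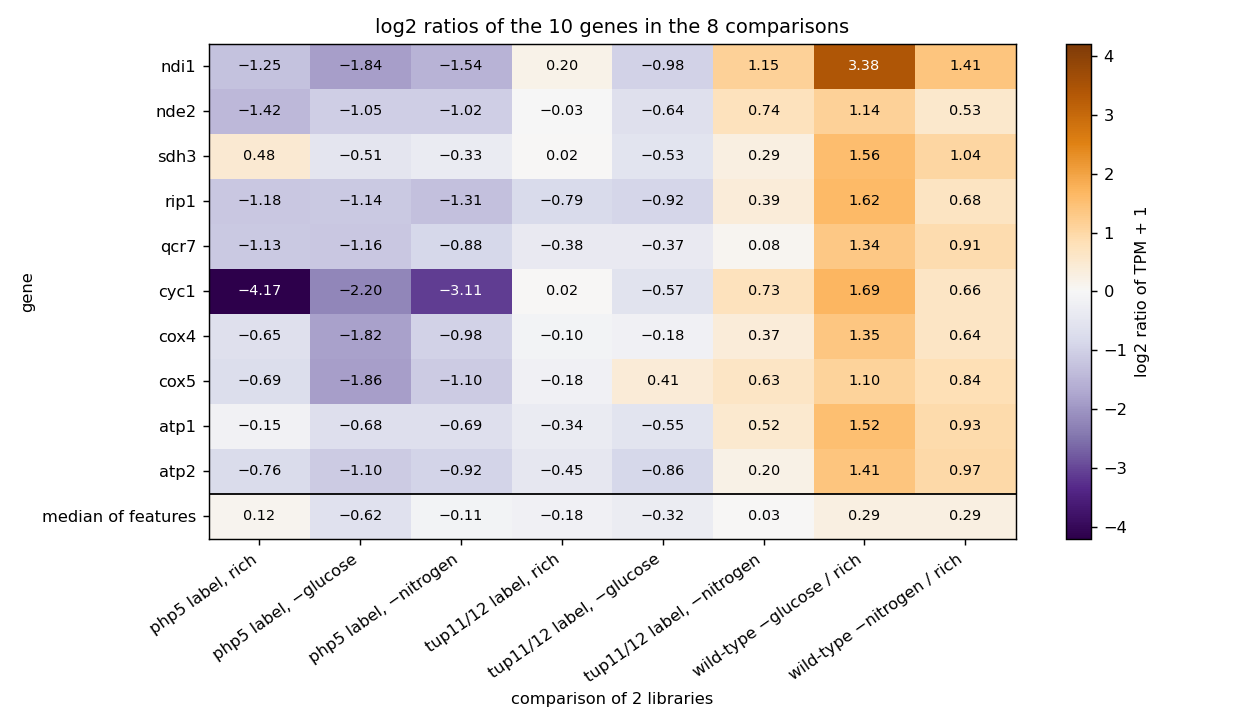
Log2 ratios of TPM + 1 of the 10 genes (rows) in 8 comparisons of 2 libraries (columns), with the median of 4810 features in the last row and the value written in each cell. Purple cells are lower and orange cells higher, from -4.17 for *cyc1* upon *php5* loss under glucose rich conditions to 3.38 for *ndi1* in glucose-starved wild-type cells.

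The likeness of profiles was measured as the root mean square difference of log2(TPM + 1), centred on each gene's mean, over the 9 libraries, where a smaller value is more alike. Among the 10 members *qcr7* and *atp2* were closest, with a difference of 0.22, followed by *cox4* and *cox5* with 0.23. The farthest pair was *sdh3* and *cyc1*, with 1.58. Over all features the nearest to *ndi1* was *inh1*, with a difference of 0.31. Wild-type cells held 216, 1234 and 557 TPM of it, libraries labelled *tup11∆/tup12∆* 182, 1087 and 866 TPM, and libraries labelled *tup11∆/tup12∆/php5∆* 90.3, 348 and 441.5 TPM. The next were SPAC4G9.19 with 0.47 and SPBC8E4.05c with 0.48.

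No feature was as near to *cyc1*. The nearest was *php5*, with a difference of 0.80, which is the deleted gene and so is low in the same 3 libraries by design, followed by *ups2* with 0.86 and the member *rip1* with 0.91. The 9 libraries share strains and media, and the differences are given as a description only.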

How the data were processed

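Libraries were grouped by strain and medium from their labels. The libraries were made from poly(A) RNA without strand information. The authors mapped reads to ASM294v2 with HISAT2 and counted them per gene with featureCounts, and the submitters' processing notes also name fastp and SAMtools, with no versions in the sources used here. The deposited values are TPM, computed by the authors per feature length, and the deposited column of coding lengths is in another unit, bases. From TPM and length, whole reads were recovered (100% of values within 1e-06 of a whole number). Log2 ratios used a pseudocount of 1. Calls used TPM ratios over 2 without a pseudocount, and the background was the 4810 features whose mean reached 10 TPM. Each mRNA library was compared singly, with exact binomial intervals. Genes named are the 10 members, the deleted and marker genes, the 3 lowest and 3 highest wider-list genes per medium upon *php5* loss, and the 3 profiles nearest to *ndi1* and *cyc1*. Members and lists were chosen with earlier results of these data known. Of 7 mitochondrial DNA genes sought, 0 were in the table. Alternatives were other pseudocounts (0.1 and 10), a 1.5-fold threshold, no filter, median-of-ratios size factors and a common upper quartile. Others were protein-coding genes only, and TPM without the 10 features of highest mean over the 9 libraries. Sequences come from RefSeq, ASM294v3. The calculations were tested on simulated data. Calculations ran in Python 3.11.15 with pandas 2.3.3, numpy 2.4.6 and scipy 1.17.1, and plots in matplotlib 3.10.9.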

Additional observations from a re-analysis of the deposited data

Results flagged for a closer look

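Some ratios between strains went in opposite directions in 2 media and are given as differences of log2 ratios. None was tested, since each strain and medium had 1 library. For the libraries labelled *tup11∆/tup12∆* over wild-type cells, *ndi1* had a log2 ratio of 1.15 under nitrogen starvation and -0.98 under glucose starvation, a difference of 2.12. Between the same media the difference was 1.37 for *nde2*, 1.31 for *rip1*, 1.30 for *cyc1* and 1.06 for *atp1*, with the ratio above 1 under nitrogen starvation and below 1 under glucose starvation in each. Relative to the median feature the differences were 1.77 for *ndi1*, 1.02 for *nde2*, 0.96 for *rip1*, 0.94 for *cyc1* and 0.71 for *atp1*. The glucose starvation log2 ratios of *nde2*, *cyc1* and *atp1* were then only -0.31, -0.25 and -0.22. Between nitrogen starvation and glucose rich conditions the difference of log2 ratios was 1.18 for *rip1* and 0.86 for *atp1*, or 0.97 and 0.65 relative to the median feature. For the libraries labelled *tup11∆/tup12∆/php5∆* over those labelled *tup11∆/tup12∆*, *sdh3* differed by -0.99 between glucose starvation and glucose rich conditions and by -0.81 between nitrogen starvation and glucose rich conditions. The first of these reversals is absent with size factors, where the log2 ratios of *sdh3* were 0.15 and 0.32, and relative to the median feature the difference was -0.25.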

How the results depend on the processing

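The counts in this paragraph show only how calls depend on the processing. No share of all features is given at 1.5-fold or with the other scalings. With a 1.5-fold threshold, members lower upon *php5* loss numbered 8 under glucose rich conditions and 9 under nitrogen starvation. Members lower without *tup11* and *tup12*, as labelled, numbered 1 under glucose rich conditions and 4 under glucose starvation, members higher there under nitrogen starvation numbered 4, and members higher in nitrogen-starved wild-type cells numbered 9. With size factors and with the common upper quartile, members over 2-fold lower upon *php5* loss numbered 4 under glucose starvation and 3 under nitrogen starvation, and 1 member was over 2-fold higher in nitrogen-starved wild-type cells. The other 100 of 112 recomputed counts were within 1.5 times those reported, and none of the 480 recomputed log2 ratios past the threshold changed direction. Of those within it, 10 changed sign, among them *sdh3* upon *php5* loss under glucose starvation, at 0.15 with size factors and 0.01 with the upper quartile instead of -0.51. No paired analysis was possible because the labels number no replicates that could be paired, with 1 library per strain and medium, so no replicate was left out either. A fit that takes the 3 media as repeats of a strain was not run. Depth limits these values little, but the spread between cultures is not known.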

Other observations

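Coenzyme Q carries electrons from the dehydrogenases to complex III. Of 13 genes for its synthesis, 0 were lower upon *php5* loss under glucose rich conditions, with a median ratio of 1.14 beside 1.09 for all features. Under glucose starvation 12 of 13 were lower and 9 over 2-fold, with a median ratio of 0.408, and under nitrogen starvation 11 of 13 were lower and 0 over 2-fold, with a median of 0.806. Of 39 assembly factor genes, 37 of them with a mean that reached 10 TPM, 2, 20 and 3 were over 2-fold lower in the 3 media, with median ratios of 1.03, 0.493 and 0.795. The counts over 2-fold lower stand against the shares of all features given above, 1.43%, 34.0% and 3.22%. The counts lower by any amount stand against 34.1%, 77.1% and 61.4% of features.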
